A study of Mus musculus with 11 samples.

Results

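The 10 genes described here are markers of intestinal stem cells: Lgr5, Smoc2, Tnfrsf19, Lrig1, Znrf3, Rnf43, Axin2, Ascl2, Sox9 and Cdca7. They were picked by name in the deposited count table, which lists 47131 genes. All 10 were found once each, and all 10 were among the 14840 genes that passed a filter on low counts. RNA was sequenced from mouse colorectal organoids, epithelial cultures in Matrigel and IntestiCult growth medium. The donor animals were C57BL/6J females, 6 to 8 weeks old, and their colon was the source. One group of 6 libraries came from organoids kept for 48 h with 10 pM NAP, and the other group of 5 libraries from controls. The labels do not spell out NAP, and they describe the controls both as untreated and as receiving PBS. No transgene or mutation is named, all libraries carry batch label 1, and how many animals or cultures they came from is not stated. The p-values therefore weigh differences against library-to-library spread, part of which may be technical.

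Intestinal stem cells sit at the crypt base and depend on Wnt signals. R-spondins bind receptors of the Lgr family and hold off the membrane ubiquitin ligases Rnf43 and Znrf3, which otherwise remove Frizzled receptors from the cell surface. More Frizzled raises beta-catenin, which acts with TCF factors on targets such as Lgr5, Axin2, Ascl2, Rnf43, Znrf3 and Tnfrsf19. Several of these targets damp the signal again, so the set holds drivers of stem cell identity and brakes on the pathway.

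After NAP the mean level of all 10 genes was lower than in controls, and none of the differences passed the test. Of all tested genes, 55.3% had a negative log2 fold change. The fitted changes ran from 2.68-fold lower for Smoc2 to 1.20-fold lower for Rnf43, with a median log2 fold change of −0.84 over the 10 genes, against −0.07 over all tested genes. Without control 4 that median was −0.38, Lgr5 and Smoc2 were positive, and Lrig1 (−0.29), Rnf43 (−0.10), Sox9 (−0.43), Axin2 (−0.55), Znrf3 (−0.49), Ascl2 (−0.57) and Cdca7 (−0.33) moved towards 0 by over 1.5 times. Without control 1 the value of Sox9 was −0.49 and that of Rnf43 −0.13, without NAP 6 that of Rnf43 was −0.15, and without NAP 3 that of Ascl2 was −1.53. In limma, the median was −0.54 with voom, −0.35 on log2(FPKM + 1) and −0.46 on log2(FPKM + 0.1). In edgeR's quasi-likelihood test, 0 of 10 had an adjusted p below 0.05, where 2.12% of all tested genes did in either direction, 1.05% on the higher side and 1.07% on the lower side. The adjusted p-values of the 10 genes lay between 0.194 and 0.620. Tnfrsf19 and Znrf3, 2 of 10, had an unadjusted p below 0.05, against 23.6% of all tested genes, and DESeq2 and limma with voom also called 0 of 10, where they called 11.6% and 2.21% of tested genes. In 0 of 10 genes did the groups separate without overlap, which 4.71% of tested genes did.

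The libraries took much the same order for most of these genes. Control 4 held the highest level of all 11 libraries for 10 of 10 genes, and control 1 was second for 7 of 10. Controls 2 and 5 stood below every other control for 9 of 10 genes, the exception being Tnfrsf19. For 6 of the 10 genes every NAP library lay inside the control range. How many of all tested genes share these orders was not counted, so they are not shown to be particular to this set. Proliferation genes, given below, split the controls in a like way. In bulk RNA, fewer stem cells and less marker RNA per stem cell cannot be told apart.

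**Figure D1:**
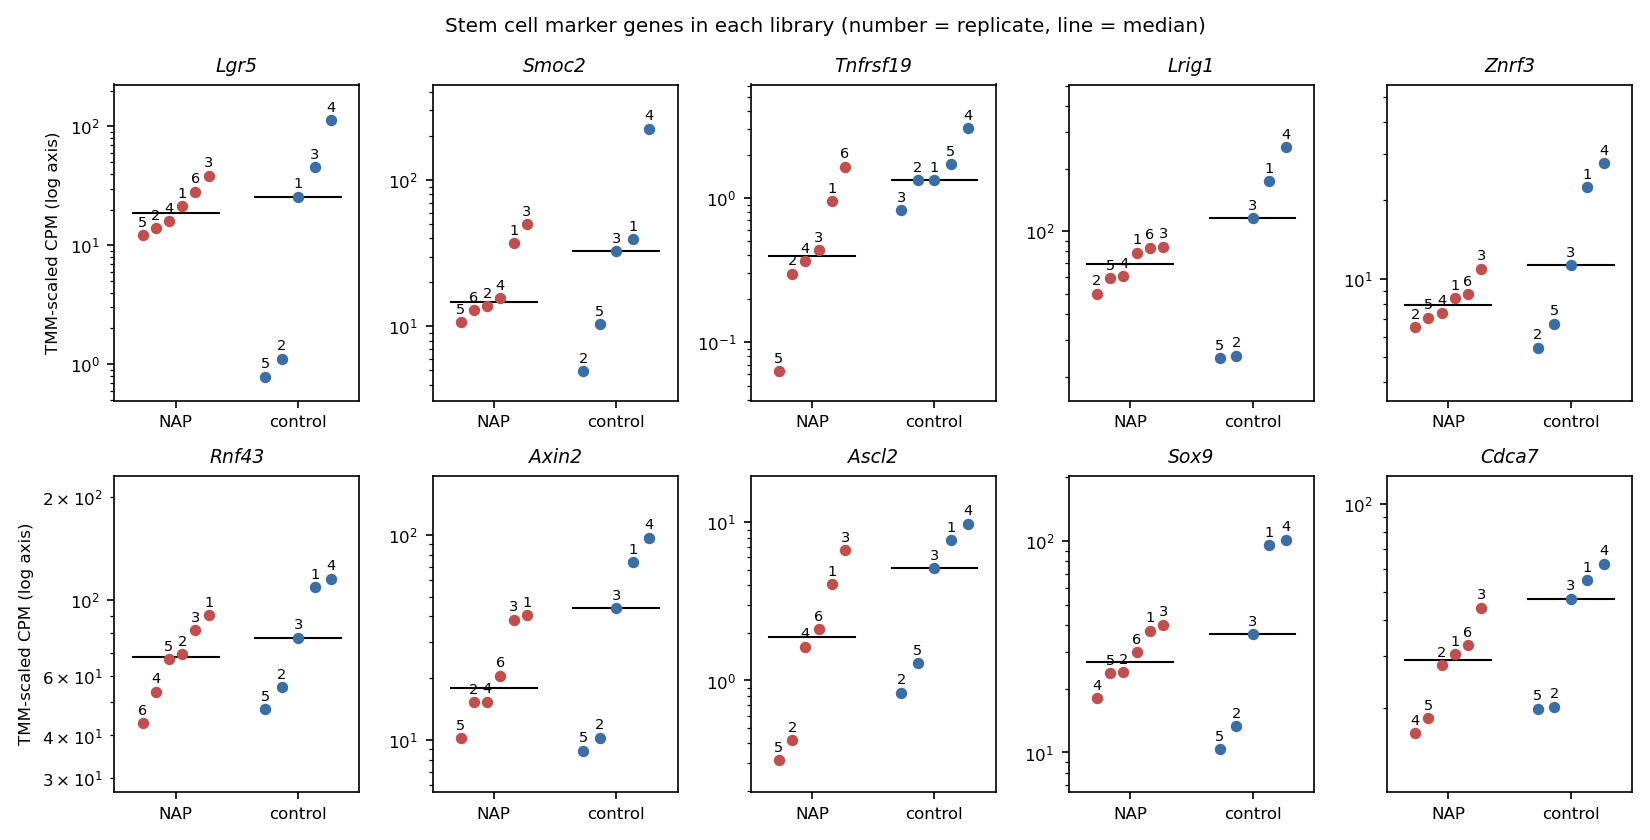
Level of each gene in each library, as TMM-scaled CPM, read counts relative to library size, on a log axis that differs between panels; points are libraries numbered by replicate, and lines are group medians. Control 4 is the highest point in every panel, while controls 2 and 5 are the lowest controls in 9 of 10 panels.

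Total gene counts ran from 16595733 to 20981155 after NAP and from 16546263 to 21947414 in controls, and a count of 0 allows up to 0.214 CPM in the least deep library (3 counts, counting error only). Controls 2 and 5 stood apart in other ways. They had 27218 and 25725 genes with at least 1 count, against at most 22390 in any other library. Their deposited FPKM values summed to 605226 and 598739, against 327272 to 468989 elsewhere, and across genes their rank correlations between gene length and deviation from the mean level were −0.38 and −0.35, against −0.21 to 0.18 elsewhere. Mitochondrial genes took 5.17% to 8.08% of counts after NAP and 2.74% to 4.78% in controls, so the groups did not overlap on that measure. Rank correlations with GC content were −0.54 to 0.12 after NAP and 0.02 to 0.36 in controls. Apart from 1 refit, the part of these measures in the results was not tested. That edgeR fit, with trends of GC content and gene length removed from each library, called 0 of 12472 tested genes. Without the removal 315 of 14840 were called. In the refit the median change of the 10 genes was −0.79 and 10 of 10 were negative. Rnf43 then moved from −0.26 to −0.07 and Lrig1 from −0.77 to −0.55, while Lgr5 (−0.81) and Tnfrsf19 (−1.39) moved slightly away from 0.

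Among receptors and niche factors, Lgr5 showed the widest range. Lgr5, identifier 14160, encodes the R-spondin receptor that defines crypt base columnar stem cells, and lies on chromosome 10 from 115286219 to 115423685 on the minus strand of GRCm39. Its level after NAP was 12.2 CPM at the lowest, 18.6 at the median and 38.5 at the highest of 6 libraries, against 25.7, 1.12, 45.2, 113 and 0.786 CPM in controls 1 to 5. The NAP libraries all fell into the gap between controls 2 and 5 below and controls 3 and 4 above. Behind the lowest 2 values stood 16 and 11 reads. Lgr5 averaged 21.7 ± 10.1 CPM after NAP and 37.1 ± 46.1 CPM in controls (SD, n = 6 and 5), with a log2 fold change of −0.78 (SE 0.88, 95% interval −2.67 to 1.12, edgeR adjusted p = 0.620). The sign of this value rested on control 4, since it was 0.24 without that library. It was also positive in limma, which averages log values: 0.62 with voom and 0.75 on log2(FPKM + 0.1).

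Smoc2, identifier 64074, encodes a secreted calcium-binding matricellular protein that is enriched in Lgr5-positive cells. After NAP it had 10.7 CPM at the lowest, 14.7 at the median and 50.2 at the highest. Controls 1 to 5 had 39.4, 4.95, 32.8, 226 and 10.4 CPM. Control 4 alone lay far above all other libraries, and the log2 fold change of −1.42 (SE 0.79, adjusted p = 0.297) was 0.09 without it. Smoc2 is also made by stromal cells, and the summed level of 10 fibroblast markers was 8.36 to 60.7 CPM after NAP and 4.6 to 33.9 CPM in controls. In control 4, the library highest in Smoc2, that sum was 5.16 CPM, of which Pdgfrb, a receptor of mural and stromal cells, made 2.01 CPM. The sums were highest in NAP 5, at 60.7 CPM, and control 2, at 33.9 CPM, of which Pdgfrb made 30.8 and 28.8 CPM. Both libraries had little Smoc2, and the part of stromal cells in its level was not tested. No marker of that list was called, and 2 of its 10 genes passed the filter.

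Lrig1, identifier 16206, encodes a membrane protein that restrains ErbB receptors and marks stem and progenitor cells. Its level was 50.1 CPM at the lowest, 69.8 at the median and 84.2 at the highest after NAP. Controls 1 to 5 held 174, 25.2, 115, 254 and 24.4 CPM. All 6 NAP libraries lay in the empty space between controls 2 and 5 and the other 3 controls. The NAP libraries differed by 1.68-fold from lowest to highest and the controls by 10.4-fold. The log2 fold change was −0.77 (SE 0.51, adjusted p = 0.379).

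Tnfrsf19, identifier 29820, encodes the TNF receptor family member Troy, a Wnt target of crypt base cells. It was near the detection limit, with 17, 5, 8, 6, 1 and 35 reads in NAP libraries 1 to 6 and 29, 19, 19, 67 and 24 reads in controls 1 to 5. That made 0.0627 to 1.65 CPM after NAP (median 0.398) and 0.820 to 3.06 CPM in controls (median 1.33). Here controls 2 and 5 were not low, and 4 of 6 NAP libraries lay below every control. The log2 fold change was −1.37 (SE 0.61, 95% interval −2.68 to −0.06, unadjusted p = 0.0414 and adjusted p = 0.194 in edgeR).

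The feedback genes of the pathway come next. Axin2, identifier 12006, encodes a scaffold of the complex that destroys beta-catenin and is widely used as a readout of Wnt activity. It had 10.2 CPM at the lowest, 18 at the median and 40.7 at the highest after NAP, against 73.8, 10.2, 43.8, 97.0 and 8.86 CPM in controls 1 to 5. NAP 1 and NAP 3, at 40.7 and 38.6 CPM, were close to control 3, while NAP 5 was close to controls 2 and 5. The log2 fold change was −0.997 (SE 0.58, 95% interval −2.26 to 0.26, adjusted p = 0.320).

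Znrf3, identifier 407821, and Rnf43, identifier 207742, encode the paired ubiquitin ligases that clear Frizzled. Znrf3 had 6.51 CPM at the lowest, 7.91 at the median and 10.9 at the highest after NAP, and 22.5, 5.44, 11.3, 27.8 and 6.72 CPM in controls 1 to 5. Every NAP library lay below controls 1, 3 and 4. For Znrf3 the log2 fold change came to −0.85 (SE 0.38, 95% interval −1.68 to −0.02, unadjusted p = 0.0453 and adjusted p = 0.202 in edgeR). Rnf43 had 43.5 CPM at the lowest, 68.1 at the median and 90.2 at the highest after NAP, and 109, 55.5, 77.5, 116 and 47.9 CPM in controls 1 to 5. It was the most even of the 10 genes in controls, with a 2.41-fold range, and its change of −0.26 (SE 0.26, adjusted p = 0.555) had an interval of −0.82 to 0.29. Its lowest library was NAP 6, where Lgr5 stood at 28.3 CPM, the second highest level in the NAP group. On the per-length FPKM scale the ratio of Rnf43 to Znrf3 was 8.40 to 18.1 after NAP and 7.01 to 17.2 in controls.

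Among the transcription factors, Ascl2, identifier 17173, encodes a basic helix-loop-helix factor that maintains stem cell identity. Its level was low, at 0.313 CPM at the lowest, 1.88 at the median and 6.65 at the highest after NAP. Controls 1 to 5 had 7.68, 0.836, 5.14, 9.83 and 1.29 CPM. NAP 2 and NAP 5, with 7 and 5 reads, lay below every control, while NAP 1 lay between controls 5 and 3 and NAP 3 above control 3. It varied about as much within the NAP group as within controls, with SDs of log2 CPM of 1.59 and 1.52. The log2 fold change was −0.97 (SE 0.77, adjusted p = 0.465).

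Sox9, identifier 20682, encodes an HMG-box factor of crypt base and progenitor cells. It had 18.1 CPM at the lowest, 26.9 at the median and 40.2 at the highest after NAP, against 95.2, 13.3, 36.4, 101 and 10.4 CPM in controls 1 to 5. The controls thus formed a high pair, a low pair and control 3 between them, with 2 NAP libraries above control 3 and 4 below it. The fitted difference of Sox9 was −0.83 on the log2 scale (SE 0.52), short of the threshold at an adjusted p of 0.355. Cdca7, identifier 66953, encodes a zinc finger protein of the cell cycle that helps the remodeller HELLS act on chromatin. It had 16.4 CPM at the lowest, 29.2 at the median and 44.1 at the highest after NAP, against 54.6, 20.1, 47.4, 62.4 and 19.9 CPM in controls 1 to 5. NAP 4 and NAP 5 lay just below controls 2 and 5, and the log2 fold change was −0.53 (SE 0.34, adjusted p = 0.371).

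**Figure D2:**
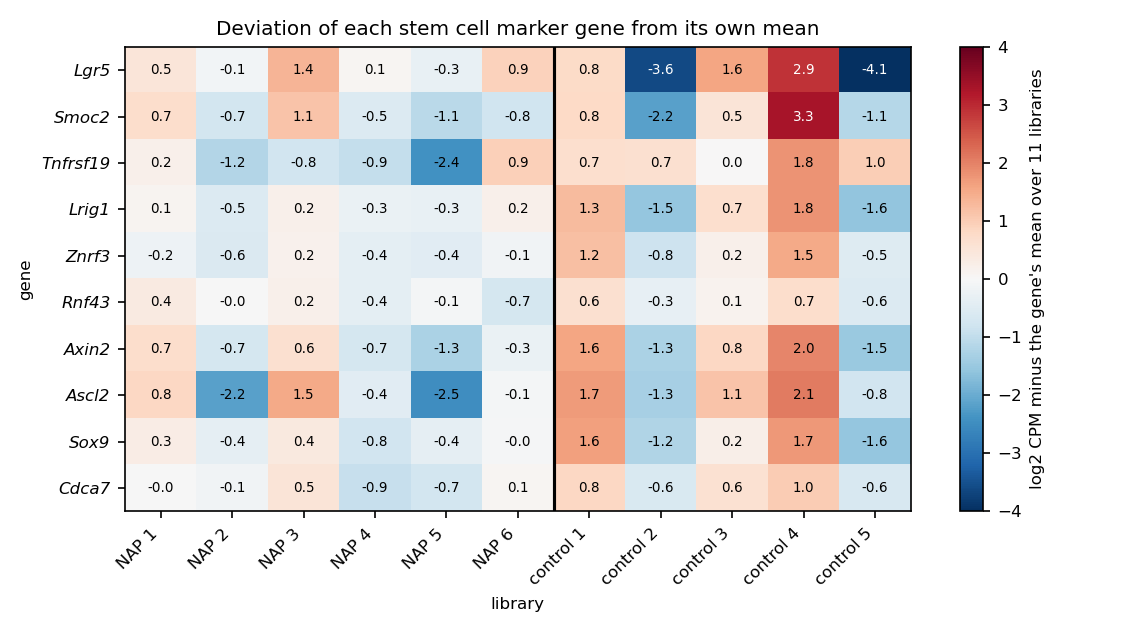
Log2 CPM of each gene (rows) in each library (columns), minus that gene's mean over all 11 libraries; red is above and blue below the mean. Controls 1 and 4 are red in all rows and controls 2 and 5 blue in all rows but Tnfrsf19, while no NAP library is as uniformly high as control 4.

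The control group was the more variable for 8 of 10 genes, the exceptions being Ascl2 and Tnfrsf19. Over all tested genes the control SD of log2 CPM was the larger one for 63.3%, with a median SD of 0.38 after NAP and 0.50 in controls. The SD of Lgr5 was 0.64 over NAP libraries and 3.17 over controls, and 0.115% of all tested genes had a larger control SD. For Smoc2 the SDs were 0.91 and 2.09, with 1.11% of tested genes above it in controls. Axin2, Lrig1, Sox9 and Ascl2 had control SDs of 1.52 to 1.6, each exceeded by under 5% of tested genes, from 3.90% for Axin2 to 4.74% for Ascl2. Rnf43 and Tnfrsf19 lay near the middle of all genes, with 43.0% and 35.9% of genes more variable in controls. Within the NAP group Znrf3 and Lrig1 were more even than most genes, with 70.5% and 61.4% of tested genes above their SDs of 0.26 and 0.31.

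**Figure D3:**
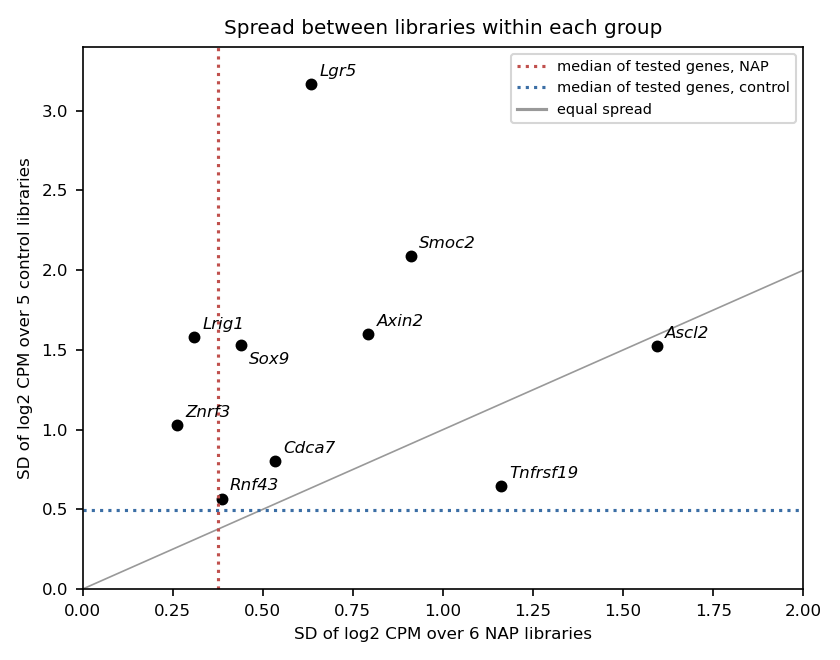
Standard deviation of log2 CPM over 6 NAP libraries (x axis) and over 5 control libraries (y axis) for each gene, with the line of equal spread and dotted medians of all tested genes. Lgr5 stands at 0.64 and 3.17, and Ascl2 and Tnfrsf19 are the 2 genes below the line.

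Because the outcome turned on which controls were read, the comparison was repeated without each of the 2 pairs of controls, a choice made after the values had been seen. Without controls 2 and 5, 10 of 10 genes were lower after NAP with a median log2 fold change of −1.41. In that edgeR fit 4 of 10 genes passed an adjusted p of 0.05, all lower, where 5.32% of tested genes passed in either direction and 2.61% on the lower side. They were Lrig1 (−1.36, adjusted p = 0.0386), Znrf3 (−1.30, adjusted p = 0.0386), Sox9 (−1.40, adjusted p = 0.0398) and Axin2 (−1.58, adjusted p = 0.0495). Without controls 1 and 4 the median was 0.18, 8 of 10 genes had a positive log2 fold change and 0 of 10 passed, where 8.28% of tested genes did. Sox9 and Smoc2 then had the highest values, at 0.55 and 0.56, and Tnfrsf19 stayed negative at −0.98. Since each pair was set aside for its own level of these genes, neither fit is independent evidence of a direction.

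**Figure D4:**
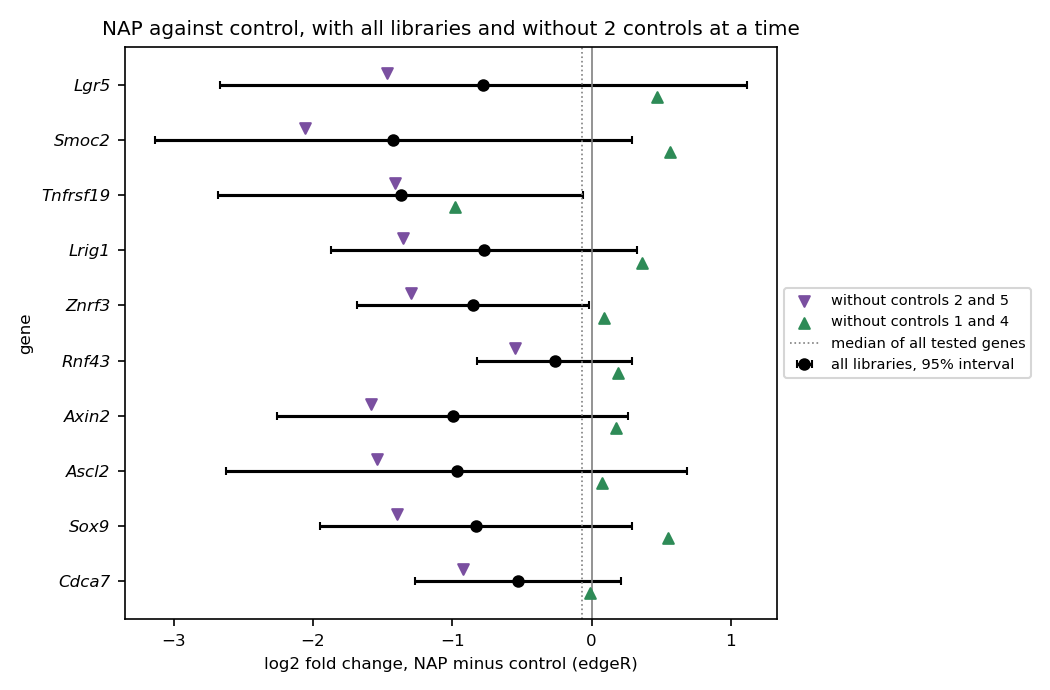
Log2 fold change, NAP minus control, of each gene with all 11 libraries (black, bars are 95% intervals) and without controls 2 and 5 (purple, down) or without controls 1 and 4 (green, up). All 10 black points are below 0, and 8 of 10 green points are above it.

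Levels of different genes can be compared only per length, so the deposited FPKM values were used for that. In NAP libraries Rnf43 was the most abundant, at 14.5 ± 3.65 FPKM (SD, n = 6), followed by Cdca7 at 10.2 ± 3.63, Smoc2 at 7.91 ± 5.5 and Sox9 at 6.77 ± 2.00 FPKM. Lrig1, Lgr5 and Axin2 followed at 4.65 ± 0.946, 4.46 ± 2.06 and 4.11 ± 2.26 FPKM, and Ascl2, Znrf3 and Tnfrsf19 came last at 1.52 ± 1.46, 1.04 ± 0.197 and 0.123 ± 0.113 FPKM. In 6 of 6 NAP libraries Sox9 exceeded Lrig1, Axin2 exceeded Ascl2 and Znrf3 exceeded Tnfrsf19, while the other neighbours changed places in at least 1 library.

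In controls the mean of Smoc2 came first at 21.1 ± 31.2 FPKM (SD, n = 5), but it exceeded that of the next gene, Rnf43 at 17.2 ± 6.43 FPKM, in 1 of 5 libraries. Cdca7 followed at 14.6 ± 7.03, Sox9 at 11.9 ± 10.2, Axin2 at 8.13 ± 6.76, Lrig1 at 7.88 ± 6.57 and Lgr5 at 7.59 ± 9.48 FPKM. Ascl2, Znrf3 and Tnfrsf19 were again last. Only the steps from Sox9 to Axin2 and from Znrf3 to Tnfrsf19 held in 5 of 5 control libraries.

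The ratio of Lgr5 to Axin2 on this scale showed that the markers did not move in step. It was 0.612 at the lowest, 1.19 at the median and 1.61 at the highest after NAP, against 0.409, 0.128, 1.21, 1.36 and 0.104 in controls 1 to 5. Control 1, with high Axin2, Sox9 and Lrig1, had a lower Lgr5 to Axin2 ratio than any NAP library. In controls 2 and 5 Lgr5 was lower, relative to Axin2, than in the other 9 libraries.

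Of the 10 genes 4 lie on chromosome 11 (Znrf3, Rnf43, Axin2 and Sox9), which holds 8.08% of tested genes. Axin2 runs from 108808654 to 108841609 on the plus strand and Sox9 from 112673036 to 112678583 on the plus strand of GRCm39. Median gene length was 4624.5 bases in the set and 3466 bases over all tested genes, and median GC content was 50.3% and 49.8%. Gene models on the opposite strand overlap Lgr5, Smoc2, Tnfrsf19, Lrig1 and Rnf43, and others on the same strand overlap Lrig1 and Rnf43. The strand setting of the counting is not known here, and reads in those overlaps cannot be assigned with certainty. The overlapping models reached at most 7.25 CPM, for Slc25a26 over 127 bases of Lrig1, and 1.64 CPM for A930009A15Rik at Lgr5.

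Since most of these genes are known targets of TCF factors and were ordered alike across libraries, the 250 bases before the annotated start were searched for CTTTGAT and CTTTGAA on both strands. RefSeq promoters of GRCm38.p6 were at hand for 6 of the 10 genes (Ascl2, Axin2, Cdca7, Lrig1, Rnf43 and Tnfrsf19), 8 starts in all. A match was found in 1 of 8, at 1 of the 2 starts of Tnfrsf19, against 7.48% of 32851 promoters of this length. The Axin2 window (chr11:108920099-108920348, plus strand) is shown as that of the standard Wnt readout gene, and the Tnfrsf19 window (chr14:61037988-61038237, minus strand) as the one with the match, in capitals and reading CTTTGAT on the other strand. Neither a match nor its absence in so short a window says whether a factor binds.
Axin2: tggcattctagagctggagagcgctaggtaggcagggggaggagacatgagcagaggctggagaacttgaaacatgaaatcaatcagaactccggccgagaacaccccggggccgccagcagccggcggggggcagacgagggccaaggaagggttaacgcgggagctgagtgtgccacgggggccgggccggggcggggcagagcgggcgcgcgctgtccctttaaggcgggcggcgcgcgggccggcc
Tnfrsf19: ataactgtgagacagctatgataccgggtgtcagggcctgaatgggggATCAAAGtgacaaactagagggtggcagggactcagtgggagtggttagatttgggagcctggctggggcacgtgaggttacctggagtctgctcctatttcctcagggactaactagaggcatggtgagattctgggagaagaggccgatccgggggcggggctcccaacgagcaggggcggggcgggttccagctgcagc

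Other genes of the Wnt pathway went both ways. Of 54 other pathway genes listed, 39 were tested, 23 were negative and 16 positive, with a median log2 fold change of −0.10 against −0.07 over all tested genes. None passed in edgeR, where 2.12% of all genes did, and at an unadjusted p below 0.05 there were 3 lower and 6 higher. Tcf7l2, the main TCF factor of the gut epithelium, had 189 ± 85.9 CPM after NAP and 82.3 ± 28.7 CPM in controls (log2 fold change 1.20, SE 0.34, adjusted p = 0.0712). Csnk1a1, the casein kinase of the destruction complex, had 701 ± 177 and 462 ± 78.7 CPM (0.60, adjusted p = 0.118). Wnt3, the ligand that Paneth cells make in the small intestine, had 0.580 ± 0.212 CPM after NAP and 1.58 ± 0.569 CPM in controls (−1.44, adjusted p = 0.0598). R-spondin genes, whose products come from stroma in the gut, were at or near 0 in all libraries, with at most 0.303 CPM.

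Among 15 other stem cell and crypt base markers, 11 were tested, with 7 negative, a median of −0.42 and none called, where 2.12% of all tested genes were. Hopx, a marker linked to slow-cycling cells, had 29.6 ± 5.52 CPM after NAP and 56.3 ± 22.8 CPM in controls (−0.93, SE 0.26, adjusted p = 0.0671). Tert, the telomerase catalytic subunit, had 7.59 ± 3.27 and 12.5 ± 7.19 CPM (−0.72, adjusted p = 0.289), and Soat1, a cholesterol esterifying enzyme, had 107 ± 19.4 and 83.8 ± 28.2 CPM (0.35, adjusted p = 0.347). Olfm4, a stem cell marker of the small intestine, was at or below 0.39 CPM everywhere. Reg4, which marks the deep crypt secretory cells that neighbour colonic stem cells, had 104 ± 67.0 CPM after NAP and 298 ± 315 CPM in controls (−1.51, edgeR adjusted p = 0.236). Its level was 364, 34.3, 262, 799 and 29.9 CPM in controls 1 to 5. All NAP libraries, at 35.7 to 209 CPM, lay above controls 2 and 5 and below the other controls. In that list of 8 deep crypt secretory and Paneth cell genes, 5 were tested, 5 were negative and none was called.

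Proliferation and differentiation genes were set beside the markers, library by library. Expressed as the mean deviation of log2 CPM from each gene's mean, the 10 stem cell markers scored −0.95 to 0.54 in NAP libraries, against 1.11, −1.23, 0.60, 1.88 and −1.13 in controls 1 to 5. The score of 20 proliferation genes was −0.69 to 0.64 after NAP, against 1.08, −1.22, 0.64, 1.45 and −1.45 in controls 1 to 5. That of 16 absorptive colonocyte genes was −0.23 to 0.78 after NAP, against −1.72, 1.18, −0.41, −1.92 and 1.18 in controls 1 to 5. The controls rich in stem cell markers were thus rich in proliferation genes and poor in colonocyte genes, controls 2 and 5 were the reverse, and the NAP libraries lay between.

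Of the proliferation genes 19 of 20 had a negative log2 fold change, against 55.3% of all tested genes, with a median of −0.54. None was called, where 2.12% of all tested genes were. Mcm2, a subunit of the replicative helicase, had 18.9 ± 8.25 CPM after NAP and 36.9 ± 29.6 CPM in controls (−0.97, adjusted p = 0.293), and Mcm7 had 36.0 ± 15.2 and 62.2 ± 36.6 CPM. Pcna, the sliding clamp of DNA replication, was the 1 positive gene, with 290.1 ± 123 CPM after NAP and 195 ± 31.1 CPM in controls (0.58, adjusted p = 0.245). Of the 16 colonocyte genes 9 were negative and 7 positive, with none called. Emp1, a membrane protein of surface epithelium, had 1341 ± 643 CPM after NAP and 471 ± 228 CPM in controls (1.51, adjusted p = 0.0672).

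**Figure D5:**
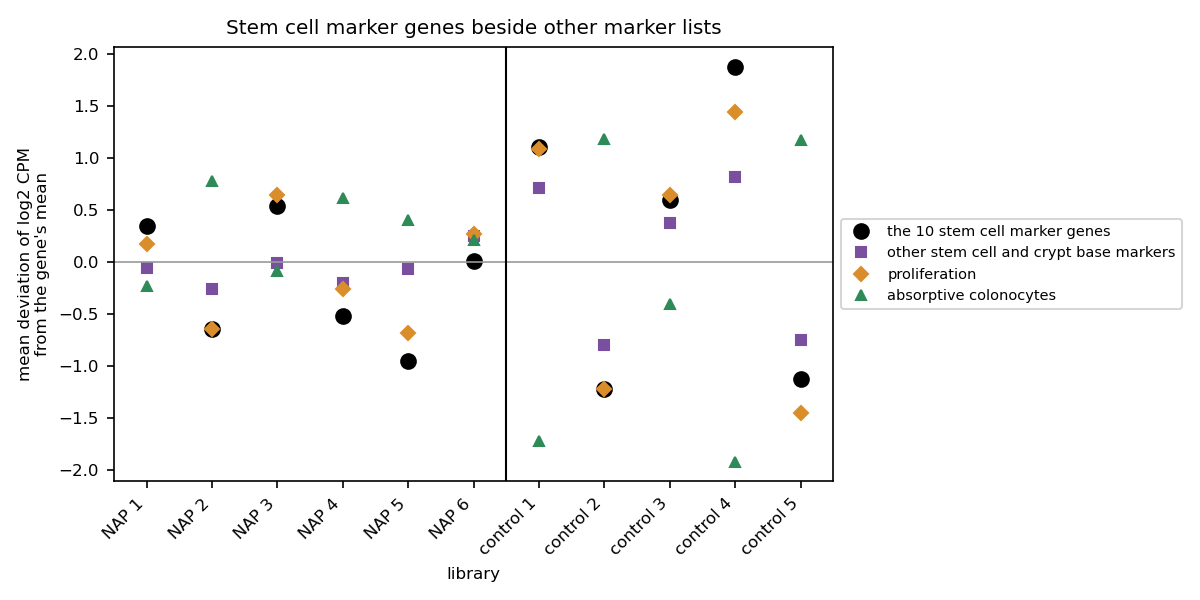
Mean deviation of log2 CPM from each gene's mean over 11 libraries, for the 10 stem cell markers and 3 other lists, in each library. NAP libraries stay between −0.95 and 0.78 on all 4 measures, while stem cell markers span −1.23 to 1.88 and colonocyte genes −1.92 to 1.18 in controls.

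Genes with the most similar profiles were sought next. Likeness was the root mean square difference between gene-centred log2 CPM profiles over the 11 libraries, among 11068 genes whose mean log2 CPM reached 1. Closest to Lgr5 were Lgals12 (0.53), Gvin-ps3 (0.58), Kif20b (0.64), Galnt5 (0.71) and Ncapg (0.74), where the median gene lay at 2.02. Kif20b is a mitotic kinesin and Ncapg a condensin subunit. Lgals12, a galectin gene, had 5.02 to 18.6 CPM after NAP and 21.1, 1.46, 15.6, 50.9 and 0.572 CPM in controls 1 to 5. Closest to the mean profile of the 10 genes were Trim35 (0.14), Dnmt1 (0.17), Lmnb1 (0.18), Kif2c (0.19) and Mcm2 (0.19), where the median gene lay at 0.999. Dnmt1, the maintenance DNA methyltransferase, had 21.0 to 56.6 CPM after NAP and 125, 16.9, 66.6, 140.1 and 17.1 CPM in controls 1 to 5. All 10 of these neighbours had a negative log2 fold change and none passed the test. They were picked for likeness over the same 11 libraries, so this is no separate evidence of a direction. Of the set itself, Axin2 was nearest its mean profile (0.26) and Lgr5 farthest (1.32). Of the compared genes, 0.262% lay closer to that profile than Axin2, but 84.8% lay closer than Lgr5 and 66.3% closer than Tnfrsf19 (1.12). The profile includes each member, and the measure reflects the size of the swings as well as their order.

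Markers of colon epithelium were abundant in every library, with Epcam, an epithelial adhesion gene, at 1859 to 3373 CPM after NAP and 1256 to 3130 CPM in controls. None of the 12 genes of that list was called, where 2.12% of all tested genes were. Cdx1 and Cdx2, the homeobox factors of intestinal identity, had log2 fold changes of −0.96 and −0.82 (adjusted p = 0.0694 and 0.0815), and Cdh1, the E-cadherin gene, 0.78 (adjusted p = 0.0664). Goblet, enteroendocrine, tuft and fetal-like regenerative lists held 11, 10, 4 and 9 tested genes, with medians of −0.27, 0.14, −0.04 and −0.53 and no calls. The regenerative list held the genes with the smallest p among these, Anxa1 and Ccn2. Anxa1, an annexin, had 529 ± 48.9 CPM after NAP and 298 ± 92.2 CPM in controls (0.83, edgeR adjusted p = 0.0539). Ccn2, a target of YAP, had 0.886 ± 0.331 and 4.42 ± 3.93 CPM (−2.32, edgeR adjusted p = 0.0807). Ccn2 was low, at 0.364 to 1.27 CPM after NAP and 7.77, 0.906, 4.23, 8.96 and 0.214 CPM in controls 1 to 5. Its controls 2 and 5 were thus not above the NAP range, and its difference rested on the other controls.

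Non-epithelial markers were scarce. Summed over 10 immune genes the level was 12 to 25.2 CPM after NAP and 8.28 to 15.3 CPM in controls, and Cd68, a macrophage gene, made 6.54 to 13.9 CPM of it after NAP and 3.61 to 11.9 CPM in controls. Of the 10 immune genes 4 were tested and 4 were positive, with a median log2 fold change of 0.94. Itgam, with the smallest p of that list, had 3.82 ± 1.70 CPM after NAP and 1.48 ± 0.939 CPM in controls (1.38, edgeR adjusted p = 0.106). Ptprc, the pan-leukocyte gene, was at most 0.188 CPM after NAP and 0.786 CPM in controls. The sum of 9 smooth muscle, endothelial and glial genes was 1.45 to 2.97 CPM after NAP and 1.61 to 4.14 CPM in controls. None of the genes in these lists was called, where 2.12% of all tested genes were, and their part in the stem cell marker levels was not tested.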

How the data were processed

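Values of both kinds deposited by the authors were used, raw counts for each gene and FPKM. Per the submitters' processing notes, Trimmomatic 0.39, HISAT2 2.2.1, featureCounts and Subread 2.0.8 were used with GRCm39; strand setting, annotation release and handling of multi-mapping reads are not known here. Coordinates and gene length (bases) are those of the deposited table.

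Genes were kept with edgeR's filterByExpr, TMM-scaled, and NAP was set against control in edgeR 4.0.16 (R 4.3.3) with its robust quasi-likelihood test over all 14840 tested genes with Benjamini-Hochberg adjustment and a threshold of 0.05. Standard errors are the log2 fold change over the square root of F. Log2 CPM used a prior count of 2. The members and all lists were chosen with earlier results of these data known. Described are the members, and in each other list the called genes and the 3 with the smallest p; a few more list genes (Olfm4, Epcam, R-spondin, stromal and immune genes) were named after their values were seen. Transcript GC content came from GENCODE M21 for 84.0% of tested genes and 10 of 10 members. Alternatives used DESeq2 1.42.0, limma 3.58.1, other scalings and filters, trend removal (lowess, span 0.3), a replicate block and libraries left out.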

Additional observations from a re-analysis of the deposited data

Results flagged for a closer look

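Smoc2 in control 4, at 226 CPM, stood far from the other controls, of which the next was 39.4 CPM: the gap made up 0.844 of the range of the 5 controls, above the 95% critical value of 0.71 of Dixon's test. The same test was made in both groups for the 10 genes, on CPM, and for their mean score, 22 times in all, and flagged this 1 value. Chance flags about 1 in 20 where values are normally distributed, which CPM need not be. On the log2 CPM scale, where the test was not made, controls 1 to 5 stood at 5.30, 2.34, 5.04, 7.82 and 3.39 for Smoc2. Control 4 was also the highest of all libraries for the other 9 genes.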

How the results depend on the processing

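Of 250 values (10 genes under 25 alternatives), 232 kept the sign and the side of the threshold, 14 changed sign and 4 passed the threshold. All 4 passed without controls 2 and 5, an alternative added after seeing the data. Without controls 1 and 4, also added then, the median was 0.18 and 8 genes changed sign: Lgr5 0.47, Smoc2 0.56, Lrig1 0.36, Znrf3 0.0911, Rnf43 0.19, Axin2 0.18, Ascl2 0.0756 and Sox9 0.55. Lgr5 was also positive with limma on voom (0.62), on log2(FPKM + 1) (0.15) and on log2(FPKM + 0.1) (0.75), with the replicate block (0.63) and without control 4 (0.24), and Smoc2 without control 4 (0.0904). With each library left out, Lgr5 ran from −1.06 to 0.24, Smoc2 from −1.80 to 0.0904, the median of the 10 genes ran from −1.07 to −0.38 and none was called. With all libraries kept, limma gave medians of −0.54 (voom), −0.35 (log2(FPKM + 1)) and −0.46 (log2(FPKM + 0.1)). The RLE scaling of edgeR, used in place of TMM, moved no library's score by more than 0.03.

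Calls over all genes, 315 here, numbered 41 with count totals only, 89 without a filter, 622 and 134 on log2(FPKM + 1) and log2(FPKM + 0.1), 1721 with DESeq2, 1480 at a threshold of 0.1, 824 without controls 2 and 5, 1315 without controls 1 and 4, and 0 to 814 with each library left out. The count was 0 in edgeR without control 1, 2 or 5 or NAP 2, 4 or 5, with 2614 to 3312 genes at an unadjusted p below 0.05, 158 and 436 without control 3 or 4, and 814, 790 and 112 without NAP 1, 3 or 6. edgeR called 0 with GC and length trends removed (2364 at an unadjusted p below 0.05) and 0 with the replicate block (2898). The labels number replicates without saying that a number is shared. Deviations of same-numbered libraries correlated at 0.42, 0.34, −0.07, −0.30 and 0.30 for numbers 1 to 5. The control of the same number was the best match of the NAP library for numbers 1 and 5, and not for numbers 2, 3 and 4. These values do not settle whether libraries were paired, and the block was kept as an alternative only. The block left the 10 genes with 0 calls and a median of −0.38. The cause of these shifts was not tested. Depth limits Tnfrsf19, with 1 to 67 reads per library, and Ascl2.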
